A study of Mus musculus with 2 samples.

Results

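The genes described here are 9 genes of the C-type lectin receptor family and 1 sialic acid-binding lectin gene: Clec9a, Clec10a, Clec4a4, Clec4a3, Clec12a, Clec7a, Clec4d, Clec4e, Cd209a and Siglech. They were taken by symbol from the 26124 genes listed for both libraries, and all 10 were found. The study asked how myeloid cells of the spleen differ between mice with sickle cell disease (SCD), which break down red cells in the circulation, and control littermates. It made 1 single-cell RNA library per group, so the differences described have no replicates behind them and no test, and every interval covers counting error only.

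The wild-type (control) mouse was homozygous for Hbatm1Paz, which removes mouse alpha globin, heterozygous for Hbbtm1Tow, which removes mouse beta globin, and carried a single copy of the transgene Tg(HBA-HBBs)41Paz, which supplies human alpha and sickle beta globin. Its red cells do not sickle, so this control is itself a carrier of the human globins. The SCD mouse, of the Berkeley model, had all 3 alleles in the homozygous state, and its red cells sickle. The animals were 12 to 16 weeks old and untreated. From each spleen, red cells were lysed and dendritic cells (DCs) were enriched by removing other cells with antibody-coated beads, which left large numbers of neutrophils, monocytes and other cells in both suspensions. The strain has a mixed genetic background.

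C-type lectin receptors are proteins of the cell surface that bind sugars, lipids or remnants of dead cells, and most of them sit in gene clusters. Some carry a tyrosine motif of their own that activates the cell (Clec7a, a receptor for fungal beta-glucan, and Clec9a, which binds actin filaments exposed by dead cells). Others signal through the Fc receptor gamma chain encoded by Fcer1g (Clec4d and Clec4e, receptors for mycobacterial glycolipid) or carry an inhibitory motif (Clec12a, which binds uric acid crystals, and Clec4a4). Clec10a binds galactose-type sugars, and Cd209a is a mouse relative of the human DC receptor DC-SIGN. Siglech pairs with the adaptor encoded by Tyrobp and is widely used to mark plasmacytoid DCs, the main source of type I interferon. In mouse spleen Clec9a marks the cross-presenting cDC1 subset and Clec4a4 marks the larger cDC2 subset.

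On the GRCm38 build, 7 of the 10 genes lie on chromosome 6, in a pair of groups. Clec4a3 (chr6:122952515-122969875, plus strand) and Clec4a4 (chr6:122990367-123024105, plus strand) were separated by 20491 bases with no coding gene between them. Clec4d (chr6:123262111-123275265, plus strand) and Clec4e (chr6:123281789-123289870, minus strand) were separated by 6523 bases and point towards each other. Clec12a (chr6:129342691-129365303, plus strand), Clec9a (chr6:129408862-129424763, plus strand) and Clec7a (chr6:129461591-129472779, minus strand) form the second group. Clec10a lies on chromosome 11 (chr11:70156197-70170834, plus strand), Cd209a on chromosome 8 (chr8:3743397-3748984, minus strand) and Siglech on chromosome 7 (chr7:55768178-55778925, plus strand). The annotation puts Clec9a in overlap with Clec1b on the same strand, and the last 500 bases of a Clec9a transcript share 92 identical bases with Clec1b. The end of Clec10a matched that of its neighbour Mgl2 at 97% of 500 bases, with 15 mismatches, so reads of this 3′ assay could be split between these genes and Clec10a values are uncertain in that respect. The end of Clec4a4 matched Clec4a3 at 81.75% of 504 aligned bases.

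Of the 10 genes, 8 had a promoter entry in RefSeq (GRCm38.p6). Shown are the 250 bases before the start for the neighbours Clec4d and Clec4e, for Clec12a, which had the widest spread over cell classes, and for Siglech, whose reads came almost entirely from 1 class. The start is that of RefSeq, which for Clec12a lies inside the longer gene range given above. Capitals mark matches, on either strand, to 5 short motifs: AGGAAG (the core bound by PU.1), TTGCNNAA (C/EBP), the paired IRF element, TGANTCA (AP-1) and CAGGTG (an E-box).

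Clec4d, chr6:123261857-123262106, plus strand: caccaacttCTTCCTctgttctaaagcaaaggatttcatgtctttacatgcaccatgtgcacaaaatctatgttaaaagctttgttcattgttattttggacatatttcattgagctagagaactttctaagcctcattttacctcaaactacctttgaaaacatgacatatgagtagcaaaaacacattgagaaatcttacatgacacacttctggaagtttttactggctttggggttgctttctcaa

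Clec4e, chr6:123289872-123290121, minus strand: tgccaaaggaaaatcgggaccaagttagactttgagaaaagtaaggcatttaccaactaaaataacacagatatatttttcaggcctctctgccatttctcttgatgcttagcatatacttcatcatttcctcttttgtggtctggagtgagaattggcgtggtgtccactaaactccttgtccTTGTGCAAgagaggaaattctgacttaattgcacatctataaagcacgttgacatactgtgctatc

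Clec12a, chr6:129349994-129350243, plus strand: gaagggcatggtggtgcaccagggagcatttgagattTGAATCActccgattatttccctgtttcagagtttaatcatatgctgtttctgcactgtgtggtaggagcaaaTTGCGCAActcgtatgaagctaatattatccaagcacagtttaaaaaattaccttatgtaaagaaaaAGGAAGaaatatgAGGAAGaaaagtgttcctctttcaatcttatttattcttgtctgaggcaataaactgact

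Siglech, chr7:55767934-55768183, plus strand: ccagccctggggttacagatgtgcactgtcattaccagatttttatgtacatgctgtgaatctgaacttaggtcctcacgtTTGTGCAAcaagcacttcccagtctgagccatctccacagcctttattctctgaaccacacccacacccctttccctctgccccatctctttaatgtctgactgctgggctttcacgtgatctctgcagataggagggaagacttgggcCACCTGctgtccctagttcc

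The PU.1 core was found in the windows of Clec4d, Clec12a and Clec4a3, and in 29.5% of all 32851 promoter windows of that length. The C/EBP letters were found in those of Clec4e, Clec12a and Siglech, against 9.56% of all windows. The AP-1 letters were found in that of Clec12a alone, against 6.75% of all windows, and the E-box in that of Siglech alone, against 17.2%. None of the 8 held the IRF letters, which 2.98% of all windows held, and the windows of Clec9a, Clec7a and Cd209a held none of the 5. A match of letters is a description of the sequence and shows no binding.

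The wild-type library held 10845 cells and the SCD library 13447. After the filters of the study, 9423 cells with a median of 4884 UMIs and 10635 cells with a median of 8282 UMIs were kept, and 88 cell barcodes occurred in both libraries. The kept cells formed 27 clusters, found without the 10 genes and the other lectin and Siglec genes, and 13 classes were named from markers and are written "-like". The share of neutrophil-like cells was 46.1% in wild-type against 66.5% in SCD, and that of the Dtx1 cDC2-like class, named for Dtx1, was 16.2% against 2.15%. Some defining markers sat where their names place them, with wild-type given first in each case. Xcr1 was at 636 and 744 CPM (UMIs per 1000000 UMIs of the class) in cDC1-like cells. Tcf4 was at 2904 and 2582 CPM in plasmacytoid DC-like cells and Ace at 1266 and 894 CPM in non-classical monocyte-like cells. Esam, listed with Dtx1, was higher in mature DC-like cells (85.3 and 53.7 CPM) than in the Dtx1 class (29.15 and 20.5 CPM). The other cDC2-like class was named from a list headed by Ffar2 and Ccr2. It had Ccr2 at 904.5 and 1260.5 CPM, but Ffar2 was higher in the Dtx1 class, at 730 and 663 CPM against 86.6 and 72.35 CPM, so the class is called Ccr2 cDC2-like. Neutrophil markers, 19 genes in all, were higher in the SCD library in 9 of the 10 other named classes, the exception being non-classical monocyte-like cells, for example 602 CPM summed in wild-type and 3746 CPM in SCD cDC1-like cells and 727 against 4174 CPM in plasmacytoid DC-like cells. The part of this difference in the results below was not tested. In the sum over a class, fewer cells with a transcript and less of it in each cell cannot be told apart.

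**Figure D1:**
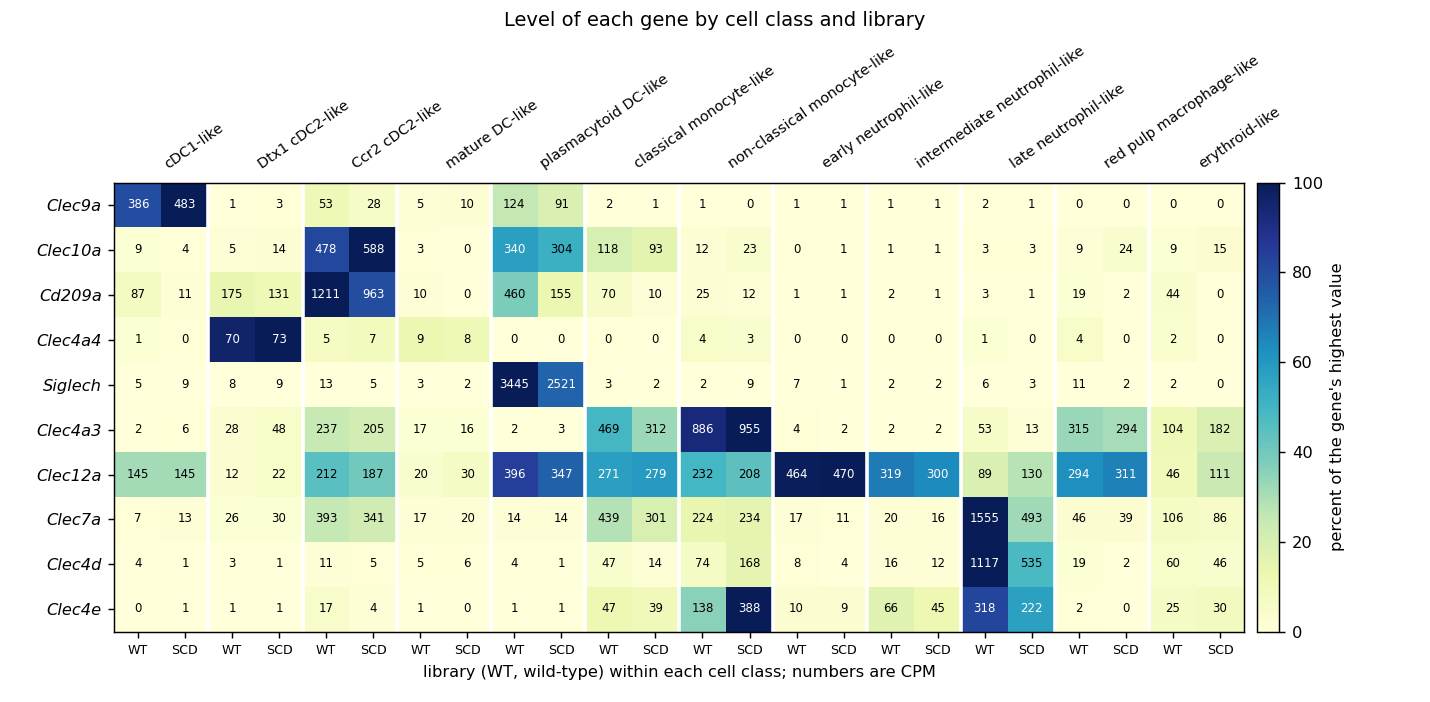
Level of the 10 genes (rows) in 12 cell classes, with the wild-type (WT) and SCD libraries side by side; the numbers are CPM and the shade is the percent of each gene's highest value, so shades compare classes within a gene and not genes. Siglech was high in 1 class, whereas Clec12a was at 144.9 CPM or more in 8 of the 12 classes in both libraries.

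Clec9a was highest in cDC1-like cells in both libraries. The level was 386 CPM (95% Poisson interval 362 to 412, 941 UMIs in 157 cells) in wild-type and 483 CPM (458 to 510, 1344 UMIs in 198 cells) in SCD. These intervals did not overlap, and the log2 ratio of SCD over wild-type, with 5 CPM added to each value, was 0.32 (0.20 to 0.44). After each cell was thinned to 1000 UMIs, 31.4% of wild-type cDC1-like cells (exact binomial interval 24.2 to 39.3) and 41.8% of SCD cells (34.85 to 49.1) held a Clec9a UMI, and these intervals overlap. Without thinning the shares were 85.35% and 91.4%, at median depths of 15405 and 14455.5 UMIs. In neutrophil-like cells, which should lack the transcript, the thinned shares were 0.186% and 0.0425%, at median depths of 2448 and 6856 UMIs. Plasmacytoid DC-like cells came next, at 124 CPM in wild-type and 90.7 CPM in SCD, followed by Ccr2 cDC2-like cells at 52.6 and 28.1 CPM. In all other classes the level was under 10 CPM, and red pulp macrophage-like and erythroid-like cells held 0 UMIs in both libraries. The floor of 3 UMIs was 5.26 to 15.2 CPM there. The Dtx1 cDC2-like class, the largest DC class of the wild-type library, was at 1.20 and 3.41 CPM.

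Across the same cDC1-like cells Clec12a was level, at 145 CPM in wild-type and in SCD (log2 ratio -0.0037, interval -0.20 to 0.20). Cd209a was the 1 gene of the 3 measured in this class that lay past 2-fold, where measured means at least 50 CPM and 20 UMIs in 1 of the libraries. It stood at 87.4 CPM in wild-type and 10.8 CPM in SCD (log2 ratio -2.55), beside 0.942% of all genes measured in cDC1-like cells past 2-fold in either direction. The level of 50 CPM was passed through the wild-type library alone. The 10 cells with the most UMIs held 84.0% of the 213 wild-type UMIs and all of the 30 SCD UMIs. The value therefore rests on few cells, and it changed with how the cells were clustered and named. It was -0.44 with called doublets removed before clustering, although 0 cells of this class were called doublets, -0.45 with total count normalization, -0.68 with the lectin genes kept in the clustering and -3.11 with cells named one by one from their markers.

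Clec4a4 was highest in Dtx1 cDC2-like cells and did not differ between the libraries beyond counting error. It stood at 70.4 CPM (65.8 to 75.2, 879 UMIs in 1528 cells) in wild-type and 73.3 CPM (61.2 to 87.15, 129 UMIs in 229 cells) in SCD, a log2 ratio of 0.06. Thinned shares were 6.84% (5.62 to 8.23) and 6.99% (4.05 to 11.1), and 0.163% and 0.0142% of neutrophil-like cells. This class held 82.4% of all wild-type Clec4a4 UMIs and 76.8% of the SCD ones. Summed over all kept cells of a library, where the Dtx1 class is much smaller in SCD, Clec4a4 went from 17.5 to 1.69 CPM. Mature DC-like cells, the Ccr7-high class, came second at 9.395 and 7.95 CPM and did not differ from Ccr2 cDC2-like cells (5.005 and 6.58 CPM) beyond the intervals. Plasmacytoid DC-like cells held 0 Clec4a4 UMIs in 723 and 607 cells.

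Clec10a and Cd209a had their highest level in the other cDC2-like class, but were also found in plasmacytoid DC-like cells. Of the Clec10a UMIs, 54.4% in wild-type and 35.7% in SCD lay in the plasmacytoid DC-like class, against 19.0% and 19.3% in the Ccr2 class. Of the Cd209a UMIs, 37.6% and 28.4% lay there, against 24.6% and 49.2%. Clec10a was at 478.5 CPM (449 to 510) in wild-type and 588 CPM (552 to 626) in SCD Ccr2 cDC2-like cells, a log2 ratio of 0.29 (0.17 to 0.42), with thinned shares of 28.6% and 36.8% whose intervals overlap. In Dtx1 cDC2-like cells it stood at 5.285 and 13.65 CPM, with 5.57 and 6.36 CPM in cluster 3, which held most of the cells, and 2.94 and 74.9 CPM in cluster 22, where 17 SCD cells held 14 UMIs. Cd209a was at 1211 CPM (1163.5 to 1260.5) in wild-type and 963 CPM (916 to 1011) in SCD Ccr2 cDC2-like cells, a log2 ratio of -0.33, and at 175 and 131 CPM in Dtx1 cDC2-like cells, a log2 ratio of -0.40. In the Ccr2 class monocyte markers summed to 12278 and 8601 CPM and proliferation genes to 962.5 and 3645 CPM, and called doublets were 11.6% of its cells in wild-type and 2.92% in SCD. Their part in these values was not tested. The Dtx1 class was made of clusters 3 and 22, which went opposite ways. Cluster 3 was at 188.5 CPM (180.5 to 197) in 1401 wild-type and 115 CPM (98.98 to 133) in 212 SCD cells, and cluster 22 was at 60.9 CPM (48.5 to 75.5) in 127 wild-type and 262 CPM (194 to 347) in only 17 SCD cells. Over the 2 cDC2-like classes together Cd209a was higher in SCD, 317.5 CPM in wild-type and 536 CPM in SCD, and Clec10a went from 70.55 to 293.5 CPM. With each library clustered alone, both differences were smaller and that of Clec10a was within 2-fold, as given below. Other genes also had higher values over the 2 classes together, Clec4a3 at 56.5 and 125 CPM, Clec12a at 40.0 and 103 CPM and Clec7a at 76.35 and 181 CPM. The Ccr2 class made up 155 of 1683 wild-type and 137 of 366 SCD cDC2-like cells. Among thinned wild-type Ccr2 cDC2-like cells, Cd209a was found in 77.3% of those with a Clec10a UMI (62.2 to 88.5) and in 48.2% of those without (38.55 to 57.9), and in SCD in 58.0% and 39.5%. None of the genes measured lay past 2-fold in a cDC2-like class: 0 of 2 in the Dtx1 class, where 0.584% of all genes did, and 0 of 6 in the Ccr2 class, where 3.69% did. Under some other clusterings, namings and filters, given below, genes of the 10 did lie past 2-fold in these classes. In mature DC-like cells, where 5.26% of genes lay past 2-fold, none of the 10 reached the level required.

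Siglech was a gene of the plasmacytoid DC-like class, which held 89.3% of its wild-type and 89.4% of its SCD UMIs, the unnamed cells holding nearly all the rest. The level was 3445 CPM (3405 to 3486, 27788 UMIs in 723 cells) in wild-type and 2521 CPM (2481 to 2561, 15088 UMIs in 607 cells) in SCD, a log2 ratio of -0.45. Thinned shares were 89.8% (87.3 to 91.9) and 79.5% (76.1 to 82.7), against 0.442% and 0.255% of neutrophil-like cells. The next class was at 13.01 CPM in wild-type and 8.99 CPM in SCD. The class was made of clusters 6 and 15, which took unequal shares of the libraries. Cluster 6 held 652 wild-type and 340 SCD cells and had Siglech at 3807 and 3719 CPM, a log2 ratio of -0.03. Cluster 15 held 71 wild-type and 267 SCD cells and had Siglech at 481 and 1341 CPM, a log2 ratio of 1.47. So the difference over the class was close to 0 in cluster 6 and of the opposite sign in cluster 15. With cells of over 5000 genes kept in, the log2 ratio of the class was -0.05. The 12 plasmacytoid DC markers summed to 15457 and 14601 CPM in cluster 6 and to 5790 and 10101 CPM in cluster 15. Proliferation genes in cluster 15 summed to 2307 CPM in wild-type and 5121 CPM in SCD, against 497 and 532 CPM in cluster 6.

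Cd209a was also found in plasmacytoid DC-like cells, where it was lower in SCD in both clusters. The class stood at 459.5 CPM (445 to 474.5) in wild-type and 155 CPM (145 to 165.5) in SCD, a log2 ratio of -1.54, and 27.9% against 12.4% of thinned cells held a UMI. In cluster 6 the values were 425 and 248 CPM (log2 ratio -0.77), and in cluster 15 they were 739 and 64.3 CPM (log2 ratio -3.42). Markers of other cells differed too. The 15 conventional DC markers summed to 17557 and 10677 CPM over the class, to 19203 and 17223 CPM in cluster 6 and to 4057 and 4235 CPM in cluster 15, and the 15 monocyte markers summed to 2859 and 2518 CPM in cluster 6 and to 4002 and 2379 CPM in cluster 15. Their part in the Cd209a values was not tested. Neutrophil-like cells were at 2.56 and 0.784 CPM. It was the 1 gene of the 5 measured in this class past 2-fold, beside 2.69% of all genes, and its log2 ratio was -0.92 with cells of over 5000 genes kept in. Clec10a was at 340 and 304 CPM in plasmacytoid DC-like cells, with 353 and 351 CPM in cluster 6 and 231.5 and 258 CPM in cluster 15. Clec12a was at 396 and 347 CPM. Clec9a went from 124 to 90.7 CPM over the class, but was at 128.5 and 133 CPM in cluster 6 and at 84.4 and 49.4 CPM in cluster 15. Clec7a was at 13.6 and 14.2 CPM over the class, and in cluster 15 it was at 78.7 and 26.2 CPM.

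**Figure D2:**
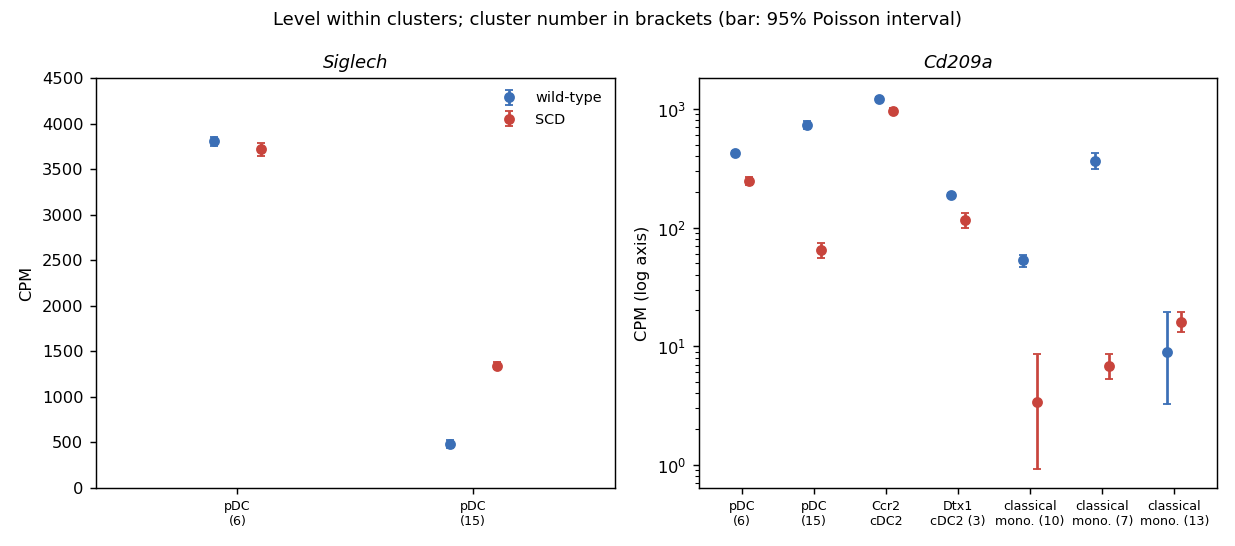
Siglech (CPM, linear axis) and Cd209a (CPM, log axis) within the clusters of the plasmacytoid DC-like class and, for Cd209a, of the monocyte-like and cDC2-like classes; points are 1 library each and bars are 95% Poisson intervals. Siglech in cluster 6 was at 3807 and 3719 CPM, and Cd209a in cluster 15 at 739 and 64.3 CPM.

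Clec4a3, a relative of Clec4a4, was a gene of monocyte-like and macrophage-like cells. It was highest in non-classical monocyte-like cells, at 886 CPM (853 to 920, 430 cells) in wild-type and 955 CPM (855 to 1064, 53 cells) in SCD, a log2 ratio of 0.11 (-0.06 to 0.27). Thinned shares were 58.2% and 54.7%, against 5.455% and 7.84% of erythroid-like cells. In classical monocyte-like cells it was at 469 CPM in wild-type and 312 CPM in SCD, a log2 ratio of -0.58. The 3 clusters of that class went the other way: 315 and 418 CPM in cluster 7, 528 and 639 CPM in cluster 10, and 79.8 and 93.2 CPM in cluster 13, where the intervals overlap. Cluster 10 held 531 of the 610 wild-type cells and 111 of the 1241 SCD cells, and cluster 7 held 39 and 795. Red pulp macrophage-like cells, a shallow class with medians of 1307 and 1518 UMIs, were at 315 and 294 CPM. Their values overlapped those of classical monocyte-like cells in SCD but not in wild-type. Ccr2 cDC2-like cells were at 237 and 205 CPM.

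In monocyte-like cells Clec12a and Clec7a were also at hand. Clec12a was at 271 and 279 CPM in classical and at 232 and 208 CPM in non-classical monocyte-like cells, with overlapping intervals between the libraries in each. By cluster of the classical class it was higher in SCD in cluster 7, at 216.5 and 314 CPM (log2 ratio 0.53), and in cluster 10, at 277 and 352 CPM (0.34), and lower in cluster 13, at 264 and 212 CPM (-0.31), with separate intervals in each. Clec7a was at 439 CPM in wild-type and 301 CPM in SCD classical monocyte-like cells (log2 ratio -0.54), and at 224 and 234.5 CPM in non-classical ones. By cluster of the classical class it was at 381.5 and 379.5 CPM in cluster 7 and 475 and 427 CPM in cluster 10. In cluster 13, of 40 wild-type and 335 SCD cells, it was at 179 and 160 CPM. The intervals of Clec7a overlap in each of these clusters. Clec10a stood at 117.5 and 92.6 CPM in the classical class, with 141.5 and 107 CPM in cluster 7, 123 and 136.5 CPM in cluster 10 and 57.6 and 62.6 CPM in cluster 13, the intervals overlapping in each. Cd209a was at 70.0 CPM (63.8 to 76.6, 474 UMIs) in wild-type and 10.0 CPM (8.596 to 11.6, 177 UMIs) in SCD classical monocyte-like cells, a log2 ratio of -2.32. It was the 1 of 5 measured genes past 2-fold, beside 5.28% of all genes. The level of 50 CPM was passed through the wild-type library alone. In cluster 7 Cd209a was at 366.5 CPM in the 39 wild-type cells and 6.765 CPM in the 795 SCD cells. In cluster 10 it was at 52.75 and 3.37 CPM, and in cluster 13 at 8.86 and 16.1 CPM, where the intervals overlap. Conventional DC markers, 15 genes, summed to 3126.5 CPM in wild-type and 1209 CPM in SCD classical monocyte-like cells. By cluster they summed to 1335 and 791.5 CPM in cluster 7, to 1137.5 and 795 CPM in cluster 13 and, in the opposite direction, to 3514 and 6985 CPM in cluster 10. Their part in the Cd209a values was not tested.

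Clec4d and Clec4e were higher in SCD non-classical monocyte-like cells, on few cells. Clec4d went from 73.6 CPM (64.2 to 84.0, 221 UMIs) to 168 CPM (127.5 to 217, 58 UMIs), a log2 ratio of 1.14. Clec4e went from 138.5 CPM (126 to 152, 416 UMIs) to 388 CPM (325 to 459, 134 UMIs), a log2 ratio of 1.45. In classical monocyte-like cells Clec4d was lower in SCD, at 46.65 CPM (316 UMIs) and 14.0 CPM (247 UMIs), a log2 ratio of -1.44. Neither library reached 50 CPM there. By cluster of that class Clec4d was at 27.9 and 18.4 CPM in cluster 7 (-0.49) and at 53.3 and 25.3 CPM in cluster 10 (-0.95). In cluster 13 it was at 4.43 and 5.32 CPM (0.13), and the intervals overlap in clusters 7 and 13. Over all monocyte-like cells it went from 54.9 to 16.9 CPM, a log2 ratio of -1.45. Of these cells the non-classical class made up 430 of 1040 in wild-type and 53 of 1294 in SCD. In non-classical monocyte-like cells 2 of the 5 genes measured, Clec4d and Clec4e, lay past 2-fold, beside 4.1% of all genes. The 53 SCD cells carried these UMIs unevenly: 10 cells held 82.8% of the Clec4d UMIs and 76.1% of the Clec4e UMIs, and 1 cell held 52 of the 134. Thinned shares were 6.10% and 7.55% for Clec4d and 9.39% (6.79 to 12.6) and 20.75% (10.8 to 34.1) for Clec4e, with overlapping intervals for both. Over the alternatives tried, the log2 ratio ran from 0.02 to 2.41 for Clec4d and from 0.82 to 1.71 for Clec4e, in both cases lowest when cells were named one by one from their markers and highest when each library was clustered alone. For Clec4d it was 1.64 with called doublets removed, 2.04 with at least 1000 genes per cell and 2.03 at the finer clustering of resolution 2. Of the wild-type Clec4d UMIs in this class 37.1% came from cells called doublets, and of the SCD ones 0%. Neutrophil markers summed to 6850 CPM in wild-type and 5563 CPM in SCD, with 0 and 2 of the 19 at 0. Red pulp macrophage markers summed to 1597 and 3488 CPM, with 0 and 5 of the 12 at 0. The part of these markers in the Clec4d and Clec4e values was not tested. In red pulp macrophage-like cells Clec4d was at 19.3 and 2.43 CPM, and Clec4e was at 1.75 CPM in wild-type with 0 UMIs in SCD.

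**Figure D3:**
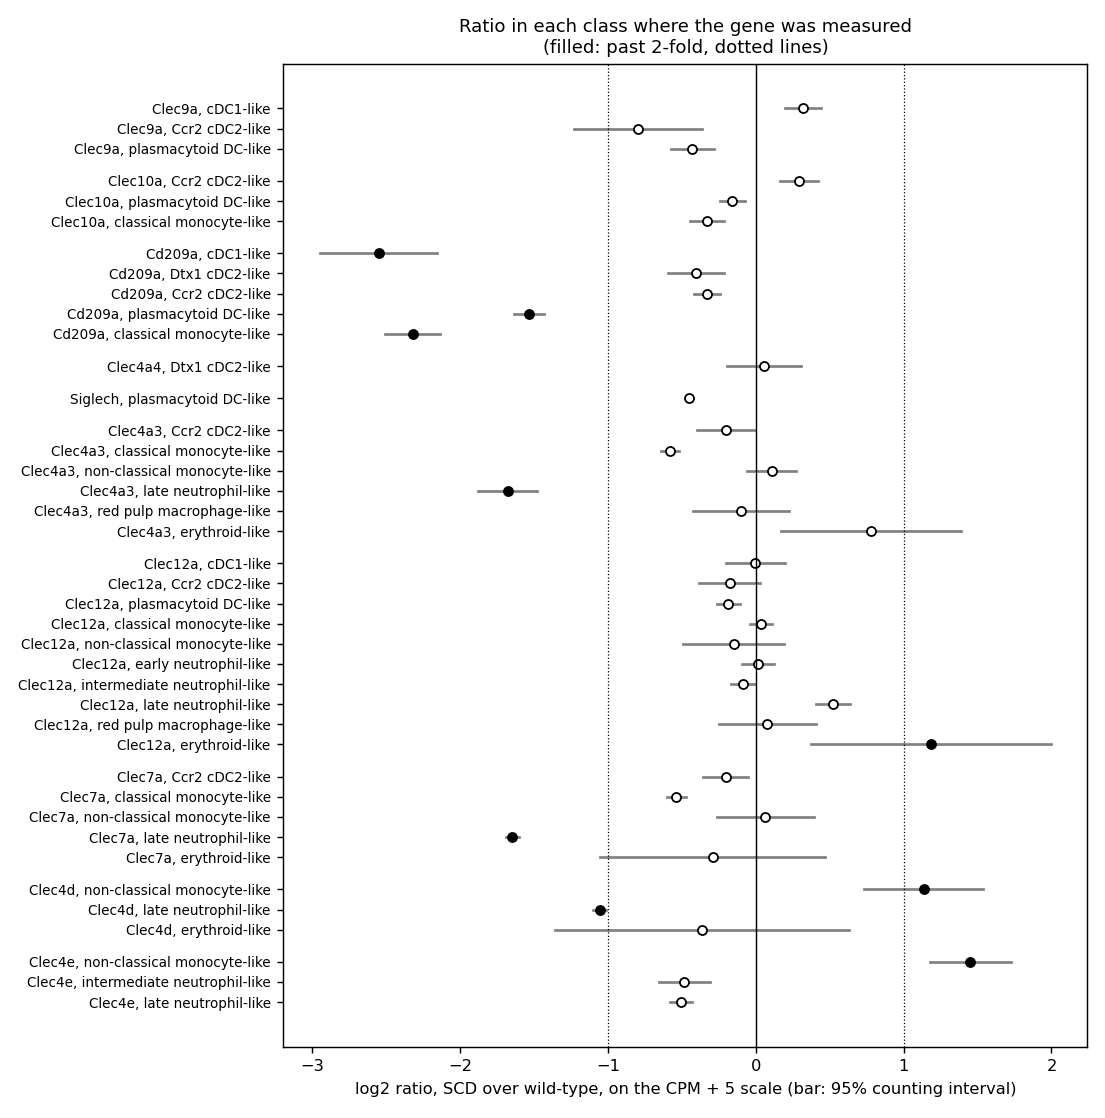
Log2 ratio of SCD over wild-type for each gene in each class where it was measured (at least 50 CPM and 20 UMIs in 1 library), on the CPM + 5 scale, with 95% counting intervals; filled points lie past 2-fold. Cd209a lay past 2-fold downwards in 3 classes, and Clec4d downwards in late neutrophil-like and upwards in non-classical monocyte-like cells.

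In neutrophil-like cells the genes followed the stage of maturation. Clec12a was highest at the early stage, the Elane-high class, at 464 CPM in wild-type and 469.5 CPM in SCD. It was lower at the intermediate stage, at 319 and 300 CPM, and lowest in late neutrophil-like cells, the Cxcr2-high class, at 88.7 and 130 CPM (log2 ratio 0.52). Clec7a and Clec4d ran the opposite way. Clec7a was at 17.25 and 10.75 CPM at the early stage and 1555 and 493 CPM at the late stage, and Clec4d was at 8.01 and 4.24 CPM at the early and 1117 and 535 CPM at the late stage. Clec4e was at 9.855 and 9.255 CPM at the early stage, at 65.5 and 45.5 CPM at the intermediate stage and at 318 and 222 CPM at the late stage. Clec9a, Clec10a, Clec4a4 and Cd209a were under 4 CPM at all 3 stages, unlike Clec12a and Clec7a, which were measured in DC-like as well as neutrophil-like cells.

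Between the libraries, 0 of the 1 gene measured in early and 0 of the 2 measured in intermediate neutrophil-like cells lay past 2-fold, beside 0.373% and 0.267% of all genes. In late neutrophil-like cells 3 of 5 did, all lower in SCD, beside 14.4% of all genes. Clec7a went from 1555 CPM (1530 to 1580) to 493 CPM (481 to 506), a log2 ratio of -1.65. Clec4d went from 1117 CPM (1096 to 1138) to 535 CPM (522 to 548), a log2 ratio of -1.05. Clec4a3 went from 52.7 to 13.04 CPM, a log2 ratio of -1.68, and passed the level of 50 CPM through the wild-type library alone. The median log2 ratio of all genes in this class was -0.43, and Clec4e, at -0.51, lay close to it. Scaled so that this median was 0, Clec4d was at -0.605, within 2-fold, while Clec7a was at -1.20 and Clec4a3 at -1.31. Clec4d was also within 2-fold with total count normalization (-0.81), with each library clustered alone (-0.95), with the lectin genes kept in the clustering (-0.96) and with cells named one by one (-0.90). Thinned shares went from 74.65% to 41.8% for Clec7a, from 63.1% to 42.5% for Clec4d and from 22.7% to 19.4% for Clec4e, against 10.9% and 0%, 3.64% and 3.92%, and 5.455% and 1.961% of erythroid-like cells, at median depths of 2351.5 and 3724 UMIs in late neutrophil-like and 7747 and 2470 UMIs in erythroid-like cells. The erythroid-like class also held neutrophil markers, summed to 12261 CPM in wild-type beside 11506 CPM of erythroid markers, and is no clean background. In plasmacytoid DC-like cells the shares were 0.968% and 0.825% for Clec7a, 0.277% and 0.165% for Clec4d, and 0.138% and 0% for Clec4e.

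The late class was made of 3 clusters that held different parts of the libraries. Cluster 0 held 3452 wild-type and 261 SCD cells, cluster 4 held 266 and 1197, and cluster 2 held 156 and 1607. Markers of the intermediate stage summed to 1784 and 3281 CPM in cluster 0, to 2372 and 4347 CPM in cluster 4 and to 22516 and 17352 CPM in cluster 2. Within clusters the differences were smaller. Clec7a was at 1694 and 1304 CPM in cluster 0 (log2 ratio -0.38), at 1482 and 963.5 CPM in cluster 4 (-0.62) and at 196 and 244 CPM in cluster 2 (0.31). Clec4d was at 1184 and 1109 CPM (-0.09), at 1015.5 and 779 CPM (-0.38) and at 514 and 395.5 CPM (-0.37) in these clusters in turn. Clec4e was at 331 and 432 CPM (0.38), at 249 and 245 CPM (-0.02) and at 238 and 198 CPM (-0.25). Clec12a was at 82.3 and 95.1 CPM (0.20), at 86.0 and 103 CPM (0.25) and at 155.5 and 143 CPM (-0.12), the intervals overlapping in each. None of these lay past 2-fold, and for Clec7a, Clec4e and Clec12a the direction was not shared by the 3 clusters. Clec4a3 went from 58.1 to 32.3 CPM in cluster 0 (-0.76), on 485 and 18 UMIs. In cluster 4 it was at 39.2 and 27.4 CPM (-0.45) and in cluster 2 at 8.57 and 5.815 CPM (-0.33). The intervals overlap in clusters 4 and 2, and none of these ratios lay past 2-fold either. Over all neutrophil-like cells, of which the late stage made up 3874 of 4345 in wild-type and 3065 of 7069 in SCD, Clec7a went from 983.5 to 112 CPM, a log2 ratio of -3.08, Clec4d had a log2 ratio of -2.55, Clec4e of -1.535 and Clec12a went from 189 to 310 CPM. Clec4d and Clec4e, neighbours in the genome, were found together in 581 of 3830 thinned wild-type late neutrophil-like cells. Clec4e was held by 24.0% of the cells with a Clec4d UMI (22.35 to 25.8) and by 20.45% of those without (18.4 to 22.65), and in SCD by 21.6% (19.35 to 23.9) and 17.85% (16.1 to 19.7).

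**Figure D4:**
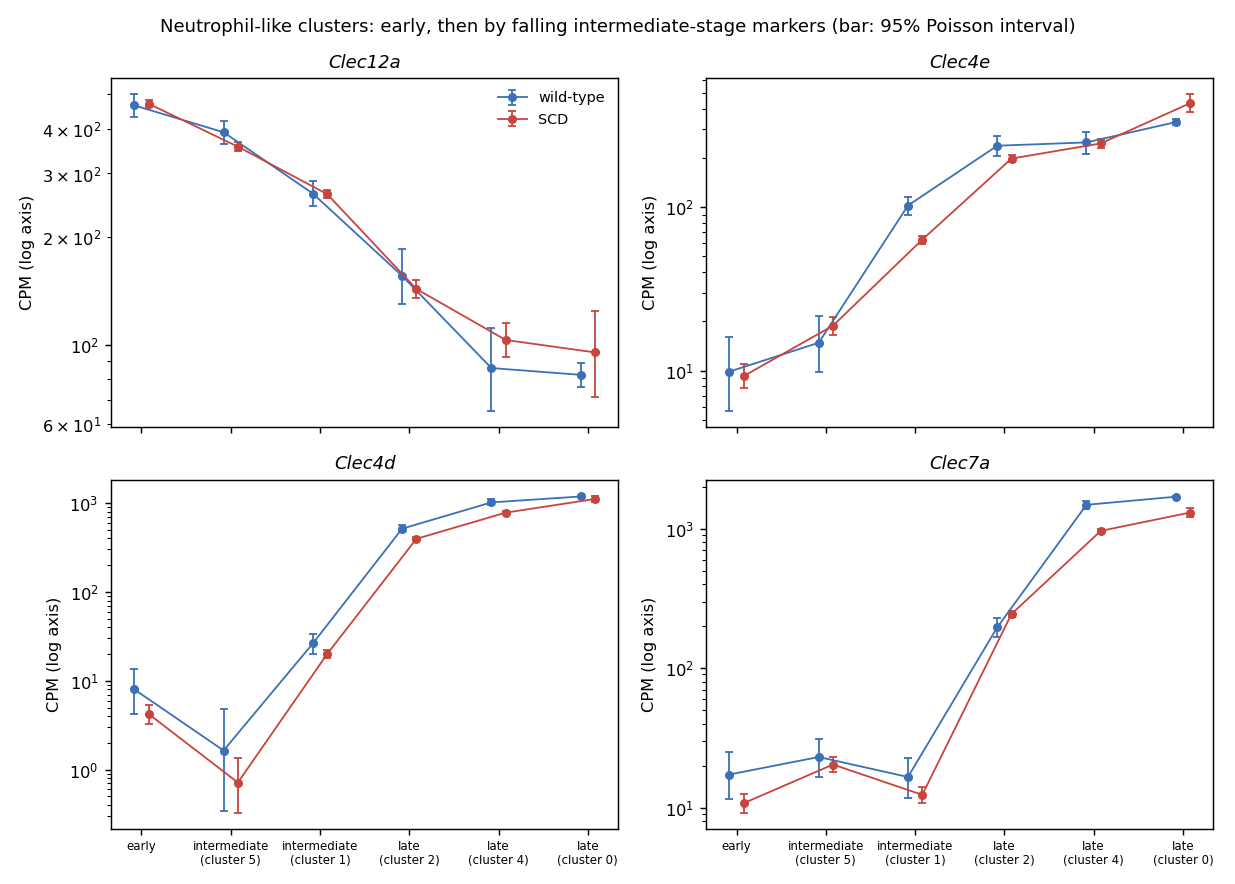
Clec12a, Clec7a, Clec4d and Clec4e (CPM, log axis) in 6 neutrophil-like clusters, with the early stage on the left and the others in order of falling markers of the intermediate stage; points are 1 library each and bars are 95% Poisson intervals. Clec4d went from 1.645 and 0.718 CPM in cluster 5 to 1184 and 1109 CPM in cluster 0, wild-type first, while Clec12a went from 391 and 356 CPM to 82.3 and 95.1 CPM.

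Clec12a had the widest spread, being measured in 10 of the 12 classes compared. Its order was the same at the top in both libraries, early neutrophil-like before plasmacytoid DC-like cells, followed by intermediate neutrophil-like and red pulp macrophage-like cells, which overlapped each other and, in SCD, red pulp macrophage-like also overlapped plasmacytoid DC-like cells. Dtx1 cDC2-like cells were lowest in both, at 12.4 and 22.2 CPM. In red pulp macrophage-like cells it was at 294 and 311 CPM, and neither it nor Clec4a3, the 2 genes measured there, lay past 2-fold, beside 8.66% of all genes. Erythroid-like cells were compared on 55 and 51 cells. Clec12a there went from 46.2 to 111 CPM (20 and 22 UMIs), passing the level of 50 CPM through the SCD library alone. It was the 1 of 4 measured genes past 2-fold, beside 38.9% of all genes, with a median log2 ratio of 0.72 over all genes. Other cells' markers were high in that class: neutrophil markers summed to 12261 and 16462 CPM and monocyte markers to 2819 and 8542 CPM. When each library was clustered on its own, the log2 ratio of Clec12a there was -0.44. Over whole libraries, where the share of each class weighs, Clec12a was the 1 gene of the 10 that was higher in SCD, at 177 and 281 CPM, where the median log2 ratio of all genes was -0.38.

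**Figure D5:**
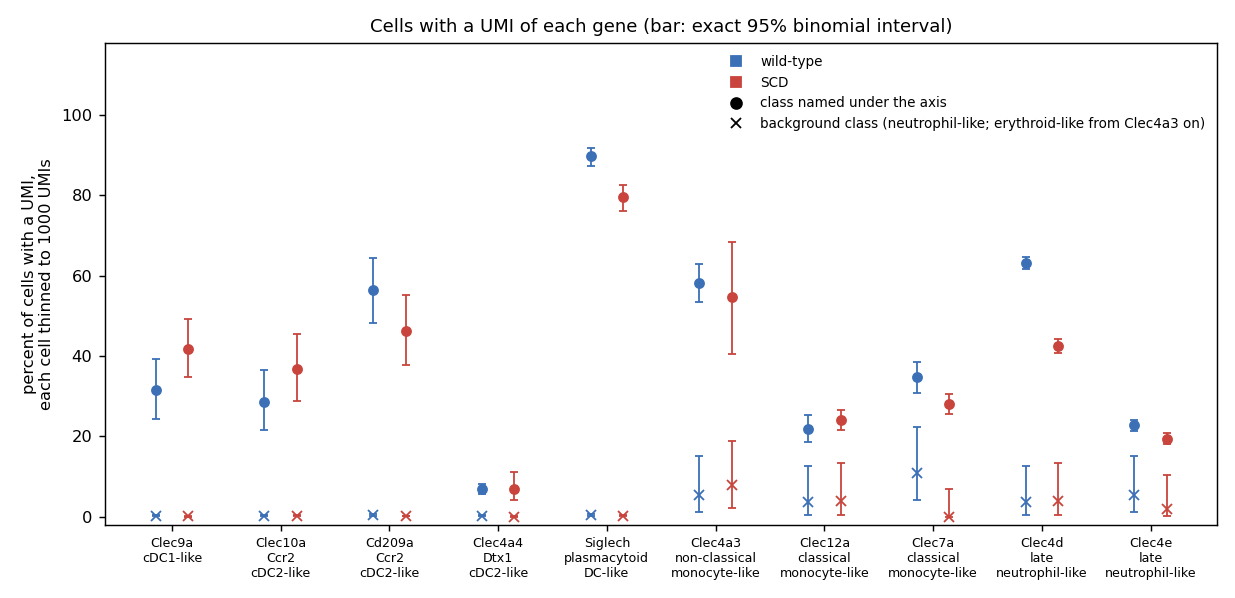
Percent of cells with a UMI of each gene after thinning to 1000 UMIs, in the class named under the axis (circles) and in a background class (crosses), which is neutrophil-like for the first 5 genes and the mixed erythroid-like class from Clec4a3 on, with exact 95% binomial intervals. Siglech was found in 89.8% and 79.5% of plasmacytoid DC-like cells and in under 1% of neutrophil-like cells, and Clec4a4 in 6.84% and 6.99% of Dtx1 cDC2-like cells.

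The genes whose profile over the 24 class sums (12 classes in each library) was most like that of each lectin, by the correlation of log2(CPM + 5) among 6409 genes, are given as a description, since the sums of a library share cells, depth and processing. Siglech was nearest to Sh3bgr (r = 0.982), Ly6d and Cd8b1, and Clec9a to Clec1a (0.977), Kif5a and Pdia5. Clec4a3 was nearest to Clec4a1 (0.953), another lectin of its family, and to Lrp1 and Csf1r. Clec4a4 was nearest to Abcb1a (0.951), and Ppp1r14a was also among its nearest. Clec7a was nearest to Ccl6 (0.953), Emilin2 and Ifitm2, Clec4d to Vnn3 (0.9275), Acta2 and Csf3r, and Clec4e to Cd300lb (0.925), Msrb1 and Lilr4b. The nearest profiles were less close for Clec10a (Padi2, 0.867, then Emp1 and Lgals1), Cd209a (Klrd1, 0.8645, then Bcl11a and Lat2) and Clec12a (Aldh2, 0.834, then Aldh3b1 and Tpst2). Ly6d, Csf1r, Ccl6, Csf3r and Msrb1 were among the markers used to name classes.

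Of the adaptors and signalling partners of these receptors, 15 genes that include Fcer1g, Tyrobp, Syk and Card9, none lay past 2-fold in any of the 12 classes, with 8 to 13 of them measured. Of all genes, between 0.267% (intermediate neutrophil-like) and 38.9% (erythroid-like) lay past 2-fold in a class. Where that share is small, a count of 0 among so few genes says little about the partners. Fcer1g, which carries the signal of Clec4d and Clec4e, was at 2656 and 1918 CPM in late neutrophil-like cells and at 3397 and 3048 CPM in non-classical monocyte-like cells. Tyrobp, the partner of Siglech, was at 4883 and 4157 CPM in plasmacytoid DC-like cells and at 9486 and 5216 CPM in late neutrophil-like cells (log2 ratio -0.86). Of 39 other C-type lectin genes, between 4 and 11 were measured in a class. Cd209d, a relative of Cd209a, was lower in SCD over plasmacytoid DC-like cells, at 707.5 and 295 CPM (log2 ratio -1.25). Over Ccr2 cDC2-like cells it was at 122 and 28.1 CPM (-1.935), passing 50 CPM through wild-type alone. In these classes 2.69% and 3.69% of all genes lay past 2-fold. Cd209d was among the 10 genes highest in cluster 6 relative to all other cells. That cluster held 652 of 723 wild-type and 340 of 607 SCD plasmacytoid DC-like cells. The part of these unequal shares in the Cd209d value was not tested. Clec4n, a receptor for fungal mannan in the same cluster as Clec4d, went from 65.6 to 475 CPM in non-classical monocyte-like cells (2.76) and from 713 to 1524 CPM in red pulp macrophage-like cells (1.09), and from 140 to 30.9 CPM in late neutrophil-like cells (-2.02). In these classes in turn, 4.1%, 8.66% and 14.4% of all genes lay past 2-fold. In the late class the median over all genes was -0.43, and its clusters held different parts of the libraries. Their part in the late Clec4n value was not tested, and 50 CPM was passed there through wild-type alone. In the non-classical class the red pulp macrophage markers given above were also higher in SCD, among them Spic at 39.3 and 298 CPM, and their part in the Clec4n value was not tested. Of 8 other Siglec genes, Siglece lay past 2-fold in non-classical monocyte-like cells, at 60.95 and 130 CPM, and in red pulp macrophage-like cells, at 357 and 124 CPM. Of all genes, 4.1% and 8.66% did so in these classes. Klrk1, a lectin-like receptor of natural killer cells, was at 70.1 and 9.72 CPM in red pulp macrophage-like cells. It passed the level of 50 CPM through the wild-type library alone. Conventional DC markers summed to 10280 and 1816 CPM in that class, and their part in the Klrk1 value was not tested. In erythroid-like cells Clec2d went from 76.2 to 30.4 CPM, Clec4n from 25.4 to 142 CPM and Mrc1, the mannose receptor, from 25.4 to 111 CPM. Clec2d passed the level of 50 CPM through the wild-type library alone, and Clec4n and Mrc1 through the SCD library alone. In this class, of 55 and 51 cells, 38.9% of all genes lay past 2-fold. Monocyte markers summed there to 2819 and 8542 CPM and red pulp macrophage markers to 988 and 3370 CPM. Their part in these values was not tested.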

How the data were processed

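Spleen cells enriched for DCs, 1 wild-type and 1 SCD sample, were sequenced with a 10x 3′ v3.1 assay. The deposited matrices hold raw UMI counts per gene and cell, made by the authors with Cell Ranger 4.0.0 on GRCm38.p6. Seurat 3.2.3, Scanpy 1.6.0 and R 4.4 are also named in the submitters' processing notes. The wild-type matrix held 97880318 UMIs and the SCD matrix 189688217. The members and lists were chosen with earlier results of these data known.

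Cells with 500 to 5000 genes, under 15% mitochondrial and under 30% ribosomal UMIs were kept, as were genes in at least 20 cells. Counts of both libraries were scaled with scran 1.30.0, and 2000 variable genes, with 57 lectin and Siglec genes left out, gave 30 components, 15 neighbours and Leiden clusters at resolution 1 (scanpy 1.11.5, leidenalg 0.10.2). Clusters were named from markers fixed beforehand, by the mean of the 8 best markers relative to their highest cluster. A cluster within 0.05 of the next name, with under 3 markers at 20 CPM, or with over 25% of cells called doublets by scanpy's scrublet, stayed unnamed. The caller marked 360 wild-type cells (3.82%) and 202 SCD cells (1.90%). Clusters rich in called doublets held 3.92% and 3.50% of cells, and other unnamed clusters 1.52% and 1.40%. Called doublets in named clusters were kept.

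UMIs were summed per library and class. CPM is per 1000000 UMIs of the class, with exact Poisson 95% intervals from scipy 1.17.1. Log2 ratios used a pseudocount of 5 CPM, which understates low genes, and have counting intervals by the delta method. With 1 sample per group no test was made. Genes with at least 50 CPM and 20 UMIs in 1 library were counted as measured, in classes with at least 50 cells per library, and 2-fold was used as a size, not a test. Shares were taken after thinning each cell to 1000 UMIs, leaving out shallower cells, with exact Clopper-Pearson intervals. In the red pulp macrophage-like class 79 wild-type and 20 SCD cells were shallower, and in each other class at most 44. All 10 genes are named, together with the 3 genes nearest in profile and the genes of the context lists past 2-fold, at most 4 per class; 1 gene near in profile is not reported here. Gene ends were compared with blastn 2.17.0 and promoters were read from RefSeq. The log2 ratio, its interval and the call past 2-fold were tried on simulated class sums with 200 genes changed by a known size. These were made for the late neutrophil-like, plasmacytoid DC-like, cDC1-like and non-classical monocyte-like classes. Clustering, naming, doublet calling and thinning were not tried in this way. Alternatives were other filters, scalings, clusterings, pseudocounts and namings.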

Additional observations from a re-analysis of the deposited data

Results flagged for a closer look

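Clec12a had reads among the cells left out for holding over 5000 genes. It stood at 98.6 CPM (96.3 to 101) in the 1220 SCD cells and at 59.8 CPM (56.4 to 63.4) in the 295 wild-type cells removed by that limit, against 281 and 177 CPM in the kept cells. These cells enter the comparisons above only where cells of over 5000 genes are said to be kept in.

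Clec4d had a log2 ratio of 1.14 in non-classical monocyte-like cells and of -1.05 in late neutrophil-like cells, where the CPM of SCD moved in opposite directions from wild-type. With 1 library per group the difference between these ratios was not tested.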

How the results depend on the processing

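No paired analysis was possible because there was only 1 sample on either side, and with no test a kept direction shows only that a value survived that choice. Of the log2 ratios in the broad classes under each alternative, 88 moved by less than the spread from counting and 42 by more, and none changed sign. For the other genes and classes 448 stayed and 144 moved. Sign changes there numbered 37 among ratios within 2-fold and 1 among those past it. Of the counts past 2-fold, 130 stayed within 1.5 times the count reported and 29 did not. Among those within it, the count of 3 in late neutrophil-like cells went to 2 under 5 alternatives, through Clec4d: median-of-ratios scaling, total count normalization, each library clustered alone, lectin genes kept in the clustering and naming of single cells. Where a value moved, the cause was not tested. The shares of all genes past 2-fold given above belong to the settings used throughout, and none is given here for the alternatives. Under the settings used throughout, the log2 ratios over the classes followed here were 0.32 for Clec9a in cDC1-like, -0.45 for Siglech in plasmacytoid DC-like, -2.55 for Clec4d and -1.535 for Clec4e in neutrophil-like, -0.87 for Clec4a3, 0.10 for Clec12a and -0.31 for Clec7a in monocyte-like (Clec4a3 had its SCD value above the wild-type value in each of clusters 7, 10, 11 and 13), and 1.98 for Clec10a, -0.54 for Clec4a4 and 0.75 for Cd209a in cDC2-like cells.

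Without the upper limit on genes, Siglech was at -0.0455, Clec4a3 at -0.467, Clec12a at 0.2853 and Clec7a at -0.0339, and the counts past 2-fold were 0 in plasmacytoid DC-like, 2 in classical monocyte-like, 1 in red pulp macrophage-like and 0 in erythroid-like cells. With at least 1000 genes per cell, Clec4d was at -2.486, Clec4e at -1.292, Clec4a3 at -0.9414, Clec10a at 1.786 and Cd209a at 0.5419. With each sample clustered on its own, Siglech was at -0.5322, Clec4d at -2.459, Clec4e at -1.467, Clec4a3 at -0.7095, Clec7a at -0.2312, Clec10a at 0.9195, Clec4a4 at -0.136 and Cd209a at 0.1338, Clec12a in erythroid-like cells changed sign to -0.4419, and the counts were 3 in Dtx1 cDC2-like, 2 in classical monocyte-like and 4 in erythroid-like cells. With names given to single cells from their marker scores, Siglech was at -0.3862 and Clec4a3 at -0.7885, and the counts were 1 in Dtx1 and Ccr2 cDC2-like, 2 in classical and 1 in non-classical monocyte-like, 1 in red pulp macrophage-like and 3 in erythroid-like cells. With the lectin genes kept in the clustering, Clec9a was at 0.1423 and Siglech at -0.3939, with counts of 0 in cDC1-like and 2 in classical monocyte-like cells. With total count normalization, Clec9a was at 0.1791, Siglech at -0.4178, Clec7a at -0.4113, Clec10a at 1.831 and Cd209a at 0.4836, with counts of 0 in cDC1-like, 2 in classical monocyte-like and 1 in red pulp macrophage-like cells. At resolution 2, Siglech was at -0.3952, Clec4a3 at -0.9321, Clec10a at 1.831 and Cd209a at 0.6265, with 3 in erythroid-like cells. With called doublets removed, the counts were 0 in cDC1-like, 1 in Ccr2 cDC2-like and 2 in erythroid-like cells. With doublet-rich clusters named like the others, chosen after seeing the data, Siglech was at -0.4811, Clec7a at -0.3824, Clec10a at 1.82 and Cd209a at 0.5644, with counts of 2 in Dtx1 cDC2-like, 2 in classical monocyte-like and 1 in red pulp macrophage-like cells. Leaving out cells with shared barcodes, also chosen after seeing the data, moved none of the broad-class ratios or counts. With median-of-ratios scaling, which sets the median of all genes to 0 in place of -0.385 in neutrophil-like cells, Clec4d was at -2.147, Clec4e at -1.145, Clec4a3 at -0.7823, Clec12a at 0.1823 and Clec7a at -0.2233. With a pseudocount of 20 CPM, Clec4d was at -2.409, Clec4e at -1.373 and Clec10a at 1.792, with 0 in erythroid-like cells. With no minimum of 50 CPM, the counts were 1 in Ccr2 cDC2-like, 1 in mature DC-like and 2 in classical monocyte-like cells. The fewest cells compared were 53 SCD non-classical monocyte-like and 51 SCD erythroid-like cells, and red pulp macrophage-like cells had medians of only 1307 and 1518 UMIs.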

Other observations

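Clec4e in classical monocyte-like cells had its SCD value above the wild-type value in each of the 3 clusters, whereas the class as a whole went from 46.6 CPM to 38.7 CPM. In cluster 10 it was at 54.9 CPM (48.9 to 61.4) in wild-type and 84.2 CPM (68.5 to 102) in SCD. In cluster 7 it was at 4.29 CPM on 2 UMIs and 46.4 CPM on 460 UMIs, and in cluster 13 at 7.39 and 18.9 CPM on 5 and 124 UMIs, where the intervals overlap. These clusters were singled out after their values were seen, and the differences were not tested.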
